A study of Mus musculus with 8 samples.

Results

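Complement is a set of plasma and cell-bound proteins that tags microbes and calls in leukocytes, and 9 of its genes were examined here in dendritic cells given 1 of 2 heat-killed bacteria. The 9 genes were taken by symbol from a table of 55376 genes: C1qa, C1qb and C1qc (the chains of C1q), C3, Cfb (factor B), Cfp (properdin), C3ar1 and C5ar1 (the receptors of the anaphylatoxins C3a and C5a) and Serping1 (the C1 inhibitor). All 9 were in the table, and 7 had enough reads for a test; C1qa and C1qc did not. The cells were mouse bone marrow-derived dendritic cells, antigen-presenting cells grown in culture from marrow. They were stimulated overnight with P. heparinolytica (PH, 3 samples) or P. melaninogenica (PM, 3 samples), both heat-inactivated, in a study that links the microbiome to checkpoint (PD-1/PD-L1) blockade in myeloma. The samples carry the ids 1, 3 and 4 in each treatment, and the sources used here give neither strain, age nor sex of the animals, nor the culture recipe. No untreated cells were among the samples, so each difference is between the 2 bacteria.

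Complement has 3 routes of activation. The classical route starts when C1q, carrying the proteases C1r and C1s, binds antibody or other targets, the lectin route when mannose-binding lectin or ficolins bind sugars, and the alternative route when C3 activated by slow turnover binds factor B. All routes cleave C3, and its fragment C3b with factor B forms the alternative C3 convertase, which properdin stabilises and which amplifies the reaction on a microbe's surface. C3a and C5a are released on the way and act on C3ar1 and C5ar1 of myeloid cells, while the C1 inhibitor blocks C1r, C1s and the lectin-route proteases. Most complement in blood comes from the liver, but macrophages and dendritic cells make several components themselves, C1q and properdin among them.

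The clearest difference was in Cfb, which was lower with PM in all 3 pairs of equal id, at 0.415 times the PH level. Of the 7 genes tested, 1 was lower with PM (Cfb) and 0 were higher by edgeR's quasi-likelihood test, at a Benjamini-Hochberg threshold of 0.05 over all genes. For comparison, 337 of all 14382 tested genes passed, 2.34% of them, with 1.64% lower and 0.702% higher. This main fit took no account of the sample ids. Samples of equal id deviated together from the treatment means, so an alternative fit took the id as a block. With this block 4 of the 7 genes were lower (C3, Cfb, C5ar1 and Serping1) and 1 was higher (C3ar1). That fit called many genes, 15.3% of all tested, 8.27% lower and 7% higher. The ranges of the treatments did not overlap for 2 of the 7, Cfb (lower with PM) and C3ar1 (higher), as was so for 19.4% of all tested genes. The median log2 fold change, PM over PH, of the 7 genes was -0.31, against 0.01 for all tested genes.

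The libraries held between 11624367 counts (PH replicate 3) and 40233148 (PH replicate 4). The predicted gene Gm42418 was at 4029 CPM (counts scaled to library size, corrected by edgeR's TMM method) in PH replicate 3 and at 878 to 1496 CPM in the other 5 samples. The labelled cell type was checked against markers. Ccr7, the chemokine receptor of mature dendritic cells, had a mean of 4049 CPM with PH and 3911 CPM with PM, and the lineage factor Zbtb46 had 75.9 and 72.1 CPM. Irf4 (332 and 275 CPM), Dpp4 (16.7 and 14.3 CPM) and Clec9a (0.473 and 1.16 CPM) did not overlap between the treatments. Of all tested genes, 19.4% did not overlap. Of 10 dendritic cell markers tested, 0 passed in edgeR's fit without the block, and with it 1 rose (Clec9a) and 2 fell (Irf4 and Ciita). With the block 7% of all tested genes rose and 8.27% fell. DESeq2's Wald test, without a block, also called Irf4 lower with PM (adjusted p = 0.0122). It called 387 of 12972 genes lower. Macrophage genes were expressed as well, such as Adgre1 (F4/80) at 504 and 487 CPM and Csf1r at 463 and 498 CPM. The markers Cd209a and Xcr1 of dendritic cell subsets were at or near 0, with 0 counts of Cd209a in all samples and means of 0.250 and 0.307 CPM for Xcr1. Since these are bulk cultures, fewer cells of a type and less RNA per cell cannot be told apart.

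**Figure D1:**
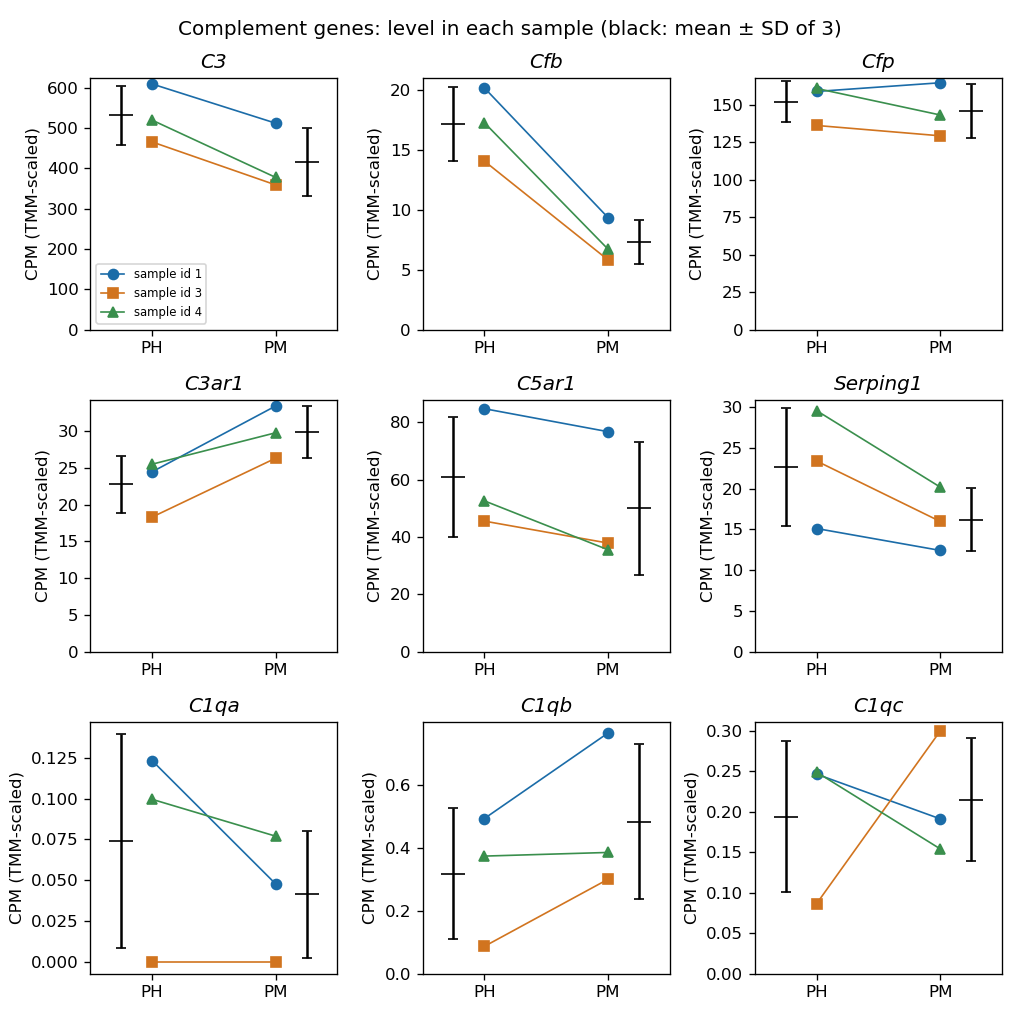
Level of each of the 9 complement genes (y axis, CPM on TMM-scaled libraries, with its own scale in each panel) in PH and PM samples (x axis); lines join samples of the same id, and black marks give mean ± SD of 3. Cfb falls along all 3 lines with no overlap between treatments, C3ar1 rises along all 3, and the C1q genes in the bottom row stay under 1 CPM.

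Cfb lies on the minus strand of chromosome 17, from 34856374 to 34862518 (GRCm38), and encodes factor B, the serine protease of the alternative C3 convertase. Exons of a read-through gene model, Gm20547, cover 81.6% of the exon bases of Cfb on the same strand and leave 506 bases to Cfb alone. One stretch of these is the start of the coding sequence in exon 1 (chr17:34862052-34862106, minus strand, GRCm38), shown because a read there belongs to Cfb alone among the annotated genes. Capitals mark the start codon.
Cfb coding start: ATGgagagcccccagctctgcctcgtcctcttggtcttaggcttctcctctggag
Gm20547 had 0 counts in every sample, so reads in the shared exons were not given to it. The sources used here do not say whether they were counted for Cfb; if they were not, the level of Cfb per length is understated, in both treatments alike.

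The PH samples had 20.2, 14.1 and 17.3 CPM of Cfb (replicates 1, 3 and 4) and the PM samples 9.36, 5.83 and 6.72 CPM. The highest PM sample thus lay below the lowest PH sample. Counts behind these levels were 492, 163 and 695 with PH and 196, 175 and 262 with PM. The means were 17.2 ± 3.06 and 7.30 ± 1.84 CPM (SD, n = 3), and edgeR gave a log2 fold change of -1.27 ± 0.18 (SE) at adjusted p = 0.00913. Within ids 1, 3 and 4 the log2 differences were -1.11, -1.27 and -1.36. With the block the log2 fold change was -1.25 ± 0.09 (adjusted p = 2.32e-12 by edgeR), and DESeq2's Wald test gave -1.26 (adjusted p = 4.77e-08). In the fit with no block the call of Cfb rested on replicate 4 in part. Leaving out PH replicate 4 gave -1.27 (adjusted p = 0.0557), and leaving out PM replicate 4 gave -1.21 (adjusted p = 0.0632). In the blocked fit Cfb passed with any 1 id left out, at -1.34 to -1.18 (adjusted p of 8.73e-14 or less by edgeR).

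C3 is the component on which all routes converge. Its gene lies on chromosome 17, from 57203970 to 57228136 on the minus strand, and took 0.0365% to 0.0596% of all counts of a sample. Its promoter as RefSeq gives it (GRCm38.p6, chr17:57228107-57228386, minus strand) is shown because C3 and Cfp were the 2 most abundant of the 9 per length. The window runs from 250 bases before the annotated start to 30 after it. Capitals mark 2 matches on the gene strand, TTGCGAAA, a match to the C/EBP motif TTGCNNAA that begins 45 bases before the start, and TATAAA, the TATA box letters, which begin 14 bases after the annotated start.
C3 promoter: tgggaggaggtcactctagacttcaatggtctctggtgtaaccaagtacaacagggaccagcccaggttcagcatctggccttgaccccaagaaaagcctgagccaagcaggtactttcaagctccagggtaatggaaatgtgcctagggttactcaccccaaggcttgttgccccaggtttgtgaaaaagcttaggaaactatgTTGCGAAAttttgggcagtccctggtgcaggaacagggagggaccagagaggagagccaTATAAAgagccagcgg
On either strand, 10.8% of 32851 RefSeq promoters of 300 bases hold the C/EBP letters and 13.62% the TATA letters. These motifs were chosen after this sequence was seen. Of the other motifs searched, the interferon-stimulated response element (GAAANNGAAA, in 3.44% of promoters), the GAS site of STAT factors (TTCNNNGAA, 8.3%) and the kappaB site (GGGANTTTCC, 0.41%) had no match in the promoters of the 6 genes given, C1qb, C1qc, C3, C3ar1, C5ar1 and Cfp. The PU.1 letters GAGGAAGT (3.2%) matched in C1qc, 195 bases before its start on the other strand. A match is a description of the letters and not of a bound site.

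C3 had 610, 466 and 520 CPM with PH and 512, 359 and 378 CPM with PM. Each PM sample was lower than the PH sample of its id, but PM replicate 1 lay above PH replicate 3, so the ranges overlapped. The means were 532 ± 72.7 and 416 ± 83.6 CPM (SD, n = 3). The log2 fold change was -0.35 ± 0.15 (SE), with adjusted p = 0.345 by edgeR without the block, and C3 passed with the block, at -0.36 ± 0.05 (adjusted p = 7.74e-07). Differences within ids 1, 3 and 4 were -0.25, -0.38 and -0.46 on the log2 scale. Without PM replicate 1, the highest PM sample, C3 passed in the fit with no block too (-0.54, adjusted p = 0.0356).

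Cfp encodes properdin, which stabilises the alternative convertase, and lies on the X chromosome from 20925454 to 20931555 (minus strand). It was at 159, 136 and 161 CPM with PH and at 165, 129 and 143 CPM with PM. The treatments overlapped, with 1 of 3 pairs higher and the others lower with PM. The means of 152 ± 13.7 and 146 ± 17.9 CPM (SD, n = 3) differed by -0.06 ± 0.10 on the log2 scale (SE), with adjusted p = 0.851 by edgeR, or 0.445 in the blocked fit. In the blocked fit without id 1, Cfp passed at -0.14 (adjusted p = 0.032). Factor D, the protease that activates factor B (Cfd), had 2 counts over all 6 samples. Of the 4 genes of the alternative route and C3, 3 were tested, 1 fell without the block and 2 with it. Over all tested genes these shares were 1.64% and 8.27%.

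The receptors of the 2 anaphylatoxins showed opposite signs. C3ar1 (chromosome 6, 122847138 to 122856161, minus strand) was at 24.5, 18.3 and 25.5 CPM with PH and at 33.4, 26.3 and 29.8 CPM with PM. The lowest PM sample, replicate 3, was just above the highest PH sample, replicate 4. The means were 22.8 ± 3.89 and 29.9 ± 3.55 CPM (SD, n = 3). Its log2 fold change was 0.37 ± 0.13 (SE), with adjusted p = 0.256 by edgeR without the block, and it passed with the block (0.38 ± 0.07, adjusted p = 0.00015). Within ids 1, 3 and 4 C3ar1 was higher with PM by 0.45, 0.53 and 0.22 on the log2 scale.

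C5ar1 (chromosome 7, 16246743 to 16259540, minus strand) varied more between ids than between treatments. It was at 84.7, 45.5 and 52.6 CPM with PH and at 76.7, 37.9 and 35.5 CPM with PM. Both samples of id 1 were above the other 4, and the ranges overlapped in part, with PM replicates 3 and 4 below every PH sample. The means were 60.9 ± 20.9 and 50.03 ± 23.2 CPM (SD, n = 3), with a log2 fold change of -0.31 ± 0.32 (SE) and adjusted p = 0.754 by edgeR without the block. C5ar1 was lower with PM in 3 of 3 pairs, with log2 differences of -0.14, -0.27 and -0.57, and the blocked fit gave -0.33 ± 0.07 with adjusted p = 5.7e-04. That call was lost without id 4 (-0.20, adjusted p = 0.109). In the fit with no block, leaving out 1 sample moved the fold change between -0.75 and -0.00.

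Summed levels of 12 macrophage markers were also highest in id 1, at 1620, 1130 and 1260 CPM with PH and at 1830, 1310 and 1340 CPM with PM. They were higher with PM in 3 of 3 pairs, the direction of C3ar1 and not that of C5ar1, though not each marker was. Cd68 had means of 286 and 390 CPM, but Adgre1 had 504 and 487 CPM. Mertk was lower with PM in each pair (5.52 and 4.33 CPM). Among these markers Apoe, Trem2, Mrc1 and Cd68 rose with the block and Fcgr1 fell, and none of these passed in edgeR's fit without it. With the block 7% of all tested genes rose and 8.27% fell. By DESeq2 without a block, Trem2 (adjusted p = 0.0325) and Cd68 (0.011) passed as higher with PM. That test called 207 of 12972 genes higher and 387 lower. Cd163 and Folr2, markers of resident macrophages, had at most 1 and 2 counts in a sample. Neutrophils and monocytes also carry C5ar1. Summed levels of 11 neutrophil markers were 609, 489 and 592 CPM with PH and 523, 373 and 502 CPM with PM, lower with PM in each pair like C5ar1. Most of that sum was S100a8 (means of 275 and 222 CPM) and S100a9 (190 and 153 CPM). Ngp (50.6 and 51.7 CPM), Ltf (10.5 and 10.9) and Mpo (8.67 and 9.83) had overlapping ranges and slightly higher means with PM. Of 10 neutrophil markers tested 1 fell, the G-CSF receptor gene Csf3r (16.3 ± 0.837 and 8.41 ± 0.187 CPM, SD, n = 3), and 4 fell with the block, which called 8.27% of all tested genes lower. The protease gene Elane went the other way, at 1.14 ± 0.0824 and 1.70 ± 0.315 CPM (SD, n = 3), with no overlap and no call in either edgeR fit. Of all tested genes, 19.4% had no overlap. The 6 monocyte markers summed to 4713 to 6428 CPM with PH and 5228 to 6677 CPM with PM. Most of that was Chil3 (means of 5625 and 5955 CPM), which was higher with PM in each pair. Ly6c2 (178 and 115 CPM), Ccr2 (7.25 and 4.61), Cx3cr1 (15.98 and 9.39) and Plac8 (19.5 and 15.2) were lower with PM in each pair. Those 4 fell with the block, and 1 of the 6, Cx3cr1, fell in edgeR's fit without it. Over all tested genes 8.27% and 1.64% fell in these edgeR fits. By DESeq2 without a block, Cx3cr1 (adjusted p = 0.000434) and Ly6c2 (0.0196) fell, as did 387 of 12972 genes. The part of these cells in the values of C3ar1 and C5ar1 was not tested.

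Other complement receptors were measured beside these 2. Cd93, named a C1q receptor when found and now known for roles in adhesion and the clearance of dying cells, was at 28.4, 25.7 and 32.1 CPM with PH and at 57.1, 46.7 and 53.8 CPM with PM. These ranges lay far apart, and Cd93 rose 1.81-fold (0.86 ± 0.10 on the log2 scale, SE; edgeR adjusted p = 0.0037). The integrin chain Itgb2, shared by the iC3b receptors CR3 and CR4, was at 740 ± 114 and 787 ± 148 CPM (SD, n = 3; log2 fold change 0.09, adjusted p = 0.861 by edgeR). Itgax, the alpha chain of CR4, was at means of 152 and 161 CPM. Itgam, that of CR3, changed by -0.12 (adjusted p = 0.901); another gene model covers 70% of its exon bases. Vsig4, a complement receptor of resident macrophages, had 0 counts. Of 8 receptor genes tested, 1 rose without the block (Cd93), and with it 2 rose (Cd93 and C3ar1) and 1 fell (C5ar1). Over all tested genes 0.702% rose without the block, and 7% rose and 8.27% fell with it.

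**Figure D2:**
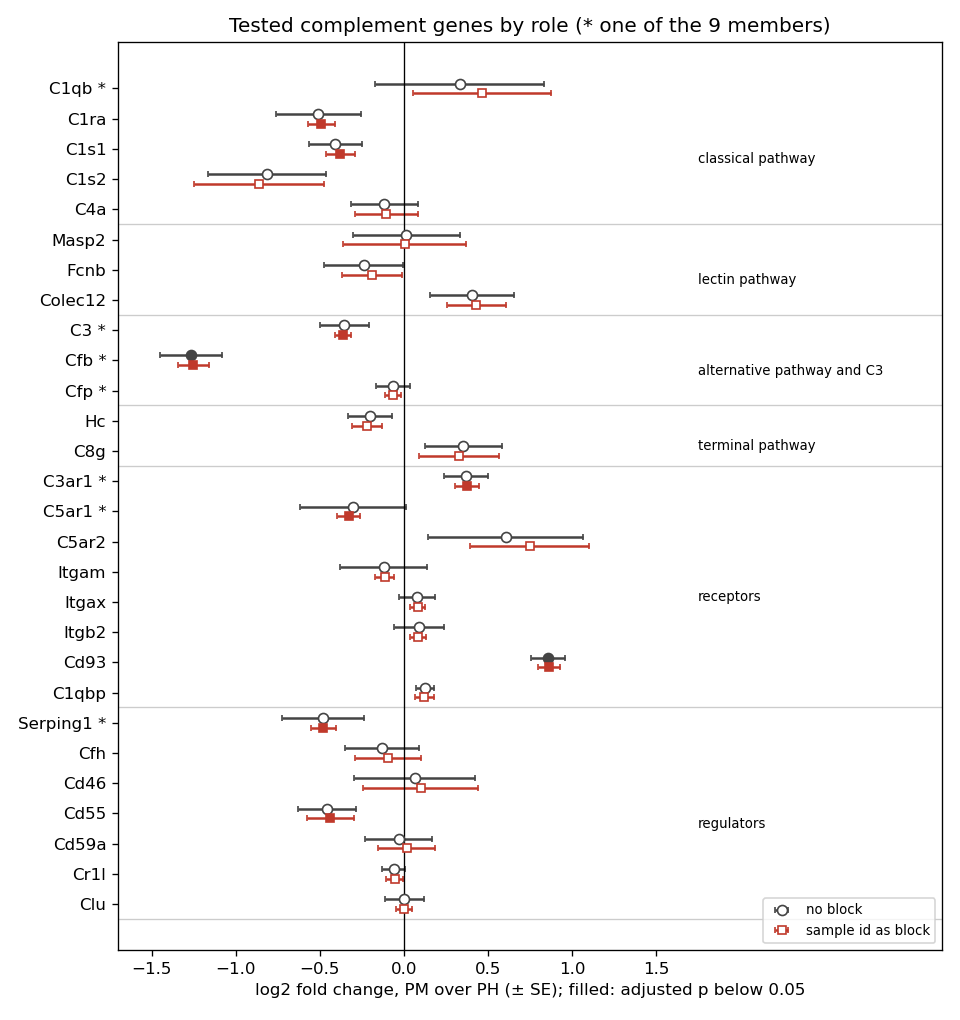
Log2 fold change, PM over PH (x axis, ± SE), of the 28 tested genes of a wider complement list, grouped by role, without (circles) and with (squares) the sample id as a block; filled symbols passed an adjusted p of 0.05. Filled circles mark only Cfb at -1.27 and Cd93 at 0.86, and the blocked fit adds 7 further genes with smaller changes.

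Serping1 encodes the C1 inhibitor (chromosome 2, 84765387 to 84775444, minus strand). It was at 15.1, 23.4 and 29.6 CPM with PH and at 12.4, 15.98 and 20.2 CPM with PM. Both treatments had the order id 1, id 3, id 4 from low to high, and the ranges overlapped. The means were 22.7 ± 7.27 and 16.2 ± 3.89 CPM (SD, n = 3), with a log2 fold change of -0.48 ± 0.24 (SE) and adjusted p = 0.454 by edgeR. It was -0.21 without PH replicate 4 and ran down to -0.72 (without PH replicate 1) as single samples were left out. The log2 differences within ids 1, 3 and 4 were -0.28, -0.55 and -0.55, and with the block it passed (-0.48 ± 0.08, adjusted p = 1.64e-05).

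The summed level of stromal markers had the same order over the ids, though not each marker did. The 7 genes (collagens Col1a1, Col1a2 and Col3a1, the PDGF receptors, Lum and Dcn) summed to 78.7, 129 and 167 CPM with PH and to 87.5, 114 and 150 CPM with PM. That sum was higher with PM in id 1, where Serping1 was lower, and lower with PM in ids 3 and 4. Of the 7 markers, 1 passed without the block, Pdgfrb, which fell (log2 fold change -0.70, adjusted p = 0.00847 by edgeR). Over all tested genes 1.64% fell in that fit. The part of stromal cells in the level of Serping1 was not tested.

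Among the other regulators, Cd55, which speeds the decay of convertases on the cell surface, had means of 5.42 ± 0.301 CPM (PH) and 3.96 ± 0.820 CPM (PM; SD, n = 3). It changed by -0.46 ± 0.17 (log2, SE; adjusted p = 0.282 by edgeR) and passed with the block (adjusted p = 0.0289), but not in the blocked fits without id 3 (0.246) or id 4 (0.111). Clu (clusterin), an inhibitor of the terminal complex, was at 120 CPM in both treatments (log2 fold change 0.00, adjusted p = 0.999). Cr1l (Crry), a convertase inhibitor on mouse cells, was at 88.0 and 84.3 CPM (-0.06, adjusted p = 0.78). Of 7 regulators tested, 0 passed without the block and 2 fell with it (Serping1 and Cd55), where 8.27% of all tested genes fell.

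The C1q chains were close to the limit of detection. C1qa, C1qc and C1qb lie side by side on the minus strand of chromosome 4, at 136895917 to 136898803, 136889804 to 136893065 and 136880129 to 136886187. C1qa had 3, 0 and 4 counts with PH and 1, 0 and 3 with PM. A count of 0 allows up to 0.259 CPM in PH replicate 3 and 0.0999 CPM in PM replicate 3 (3 counts, counting error only). C1qc had 6, 1 and 10 counts with PH and 4, 9 and 6 with PM, and its ranges overlapped. Neither gene was tested.

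C1qb had 12, 1 and 15 counts with PH and 16, 9 and 15 with PM, or 0.493, 0.0864 and 0.373 CPM against 0.764, 0.300 and 0.385 CPM. The ranges overlapped, and 3 of 3 pairs were higher with PM, of which id 3 rested on 1 PH count. Its log2 fold change of 0.33 ± 0.50 (SE) did not pass (adjusted p = 0.845 by edgeR, 0.523 with the block). No difference in C1qb was thus detected at these low counts, and C1qa and C1qc were not tested.

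The proteases that C1q carries were measured at higher counts than C1q itself. C1ra (C1r) was at 25.7, 13.8 and 17.4 CPM with PH and at 18.6, 11.3 and 11.2 CPM with PM. Each PM sample was below the PH sample of its id, and the ranges overlapped. C1ra changed by -0.51 ± 0.25 (log2, SE; adjusted p = 0.446 by edgeR), and with the block it passed (-0.49 ± 0.08, adjusted p = 3.08e-05). The means of C1s1 (C1s) were 14.8 ± 2.88 CPM (PH) and 11.3 ± 1.70 CPM (PM; SD, n = 3). It too missed the threshold without the block (-0.41 ± 0.16, adjusted p = 0.297) and passed with it (-0.38 ± 0.09, adjusted p = 0.00179); an antisense gene covers 19.3% of its exon bases. Of 10 classical-route genes 5 were tested, with a median log2 fold change of -0.41, and 0 passed without the block and 2 fell with it, where 8.27% of all tested genes fell.

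A wider list of 54 complement genes, the 9 included, was counted by role in the same fit. Of these 54, 8 had no count in any sample: the mannose-binding lectins Mbl1 and Mbl2, C7, C8b, Vsig4, C4bp, Cd55b and Cpn2. Of 28 tested, 1 fell (Cfb) and 1 rose (Cd93), and with the block 7 fell and 2 rose. Over all tested genes these shares were 1.64% and 0.702% without the block and 8.27% and 7% with it. The median log2 fold change of the 28 was -0.06. Over the 45 genes other than the 9, 21 were tested, of which 1 rose and 0 fell, or 1 rose and 3 fell with the block. The 3 tested lectin-route genes gave no call, nor did the 2 of the terminal route. One of the latter was Hc, the gene of C5, at 12.7 and 10.9 CPM (log2 fold change -0.20, adjusted p = 0.59 by edgeR).

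Levels of different genes were compared per kilobase of exon (RPKM, counts scaled by exon length and by depth). The means ± SD over the 6 samples were 92.3 ± 18.4 RPKM for C3 and 91.0 ± 8.95 for Cfp, which did not differ beyond their spread. The order of these 2 turned with the treatment: C3 was above Cfp in all 3 PH samples and below it in all 3 PM samples (means of 103.5 and 92.9 RPKM with PH, 81.1 and 89.1 with PM). In PM replicate 1 they were nearly level, at 99.7 and 101 RPKM. In the ranking of all genes by RPKM, C3 held places 561 to 982 and Cfp 680 to 866 of the 19435 to 22726 genes with a count. C5ar1 followed at 21.6 ± 8.02 RPKM, Serping1 at 9.67 ± 3.14, C3ar1 at 6.11 ± 1.19 and Cfb at 4.45 ± 2.13. The sample ranges of these 4 overlapped from each to the next, but within every sample C5ar1 was above Serping1. The C1q genes stood lowest, with C1qb at 0.368, C1qc at 0.170 and C1qa at 0.0557 RPKM. If only the 506 unshared bases of Cfb were counted, its mean would be 24.2 RPKM, the third place of the 9, so the place of Cfb in this order is uncertain.

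Ratios of read counts within a sample need no scaling by depth. The ratio of C3 to Cfb counts was 30.2, 33.1 and 30.1 with PH and 54.7, 61.6 and 56.2 with PM. The means were 31.1 ± 1.71 and 57.5 ± 3.65 (SD, n = 3), and no PM sample came near a PH sample. Per length, on the log2 scale, the same ratio was 4.06 ± 0.08 and 4.94 ± 0.09. Both genes were lower with PM in every pair, and Cfb was the more so.

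The ratio of C3ar1 to C5ar1 counts was 0.289, 0.402 and 0.485 with PH and 0.436, 0.696 and 0.839 with PM. It was higher with PM in 3 of 3 pairs, although PM replicate 1 lay below PH replicate 4. The means were 0.392 ± 0.0986 and 0.657 ± 0.204 (SD, n = 3). These ratios are given as a description with no test.

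**Figure D3:**
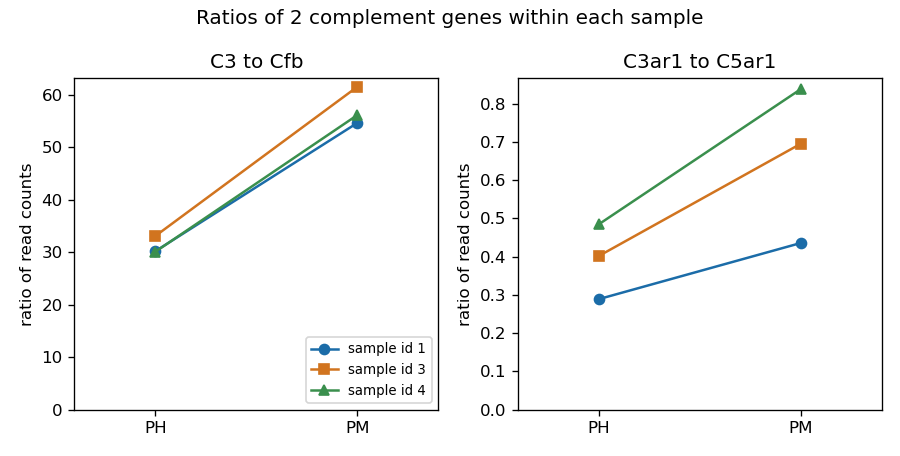
Ratio of read counts within each sample (y axis) of C3 to Cfb (left) and of C3ar1 to C5ar1 (right) in PH and PM samples (x axis), with lines joining samples of the same id. The left ratio is 30.1 to 33.1 with PH and 54.7 to 61.6 with PM, and the right ratio rises in each id with overlap between the treatments.

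Genes whose pattern over the 6 samples was most like that of each member were found by the root mean square difference of centred log2 CPM, among 8761 other genes with a mean of at least 10 CPM. For Cfb these were Rnd1 (0.04), Ly6a, the surface protein Sca-1 (0.12), and Saa3, an acute-phase protein (0.15), against an SD of 0.67 of Cfb itself. C3 was nearest to Apobr (0.03), Hcls1 (0.04) and Scarf1 (0.04). Cfp was nearest to Rab31 (0.03), Errfi1 (0.04) and Plod1 (0.04).

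C5ar1 lay closest to other receptors of myeloid cells, the formyl peptide receptor Fpr1 (0.07), Gpr84 (0.08) and Pilra (0.08). C3ar1 lay closest to Mgll (0.06), Phospho1 (0.06) and Hip1 (0.06). The nearest genes to Serping1 were Col4a1, a basement membrane collagen (0.11), Bgn, a matrix proteoglycan (0.13), and Serpinh1, a collagen chaperone (0.15). For the C1q genes the counts were too few for a pattern to be read.

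**Figure D4:**
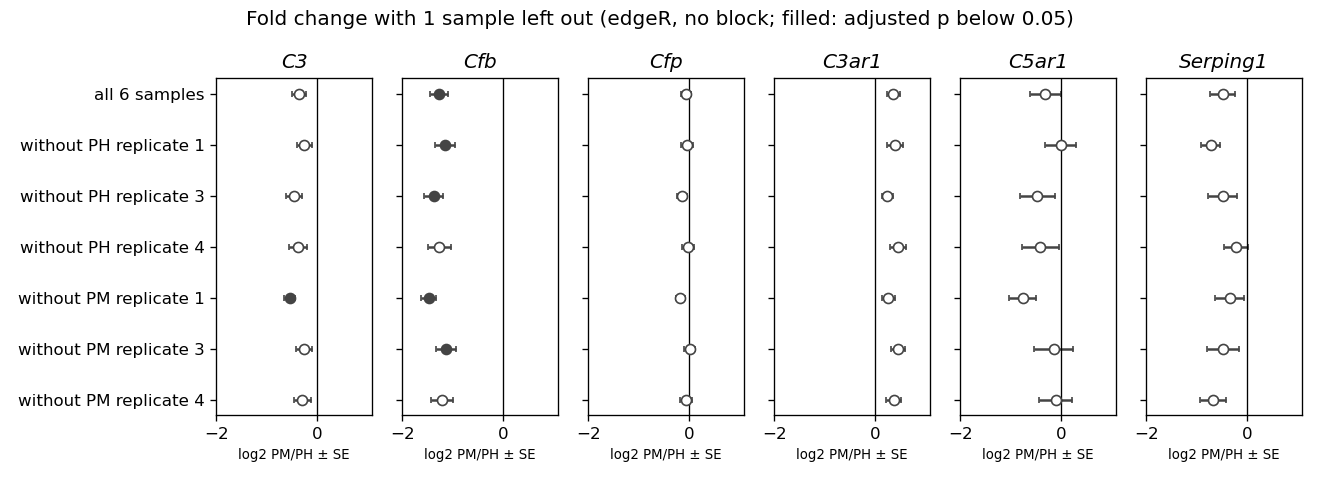
Log2 fold change, PM over PH (x axis, ± SE, fit without a block), of the 6 members with the higher counts, in all 6 samples and with each sample left out in turn (y axis); filled symbols passed an adjusted p of 0.05. Cfb stays between -1.48 and -1.13 and is open without either replicate 4, C3 is filled only without PM replicate 1, and C5ar1 runs from -0.75 to -0.00.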

How the data were processed

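The authors deposited whole-number read counts per gene, without normalization. The build was GRCm38, and featureCounts 1.6.4, STAR 2.5.3a and Trimmomatic are the tools named in the submitters' processing notes. The sources used here do not give the strand setting or the treatment of reads that fall in 2 genes. Per the labels, polyadenylated RNA was made into libraries with a strand-marking kit. Of 8 libraries listed, 2 are second runs (PM id 1, PH id 3), and the table has 6 count columns, each used as 1 sample. Whether those 2 columns hold 1 run or both is not given.

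Counts were filtered with filterByExpr (minimum count 10) and tested with edgeR 4.0.16 (R 4.3.3) by its quasi-likelihood test on TMM-scaled libraries, with Benjamini-Hochberg adjustment over all 14382 genes and a threshold of 0.05. The SE was derived from the F value. The alternatives were the sample id as a block, DESeq2 1.42.0, other scalings and filters, and samples left out. Nothing in the labels says whether an id is an animal or a culture. The p-values therefore rest on the spread of these samples only, which may be technical. Deviations from the treatment means correlated between same-id samples at 0.44, 0.322 and 0.244, and between different ids at -0.349 to 0.066. Deviations cancel out within a treatment, so positive same-id values in part force the different-id values down. The latter are thus no separate evidence of pairing. Given the same-id values, samples of equal id were compared as pairs in the blocked fit and in the differences within ids. The main fit, DESeq2 and the fits with 1 sample left out ignored this pairing. Blocked values are printed where they change a call.

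The members and gene lists were chosen with earlier results of these data known. Named were all 9 members, genes of the wider list that passed either fit or had the highest levels, and for each member the 3 genes nearest in pattern (log2 of CPM plus 0.1). Promoters are from RefSeq (GRCm38.p6), found for 6 of 9 members. The coding sequence is from GENCODE's annotation of GRCm38. A macrophage marker's own result is not reported here.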

Additional observations from a re-analysis of the deposited data

How the results depend on the processing

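The number of genes that passed was 337 of all tested, 1 of the members (Cfb) and 2 of the wider list (Cfb and Cd93). In the fit with the replicate block these counts were 2197, 5 and 9. With no filter on low counts they were 846, 3 and 5, and without the columns that match 2 runs each they were 629, 2 and 4. DESeq2's Wald test passed 594 genes. With 1 sample left out, the counts ran from 142 to 417 genes, 0 to 2 members (0 without PH replicate 4 or PM replicate 4, 2 without PM replicate 1) and 1 to 3 of the wider list. With the block and 1 id left out, the counts were 2145, 6 and 11 without id 1, 1580, 5 and 8 without id 3, and 1529, 4 and 7 without id 4. DESeq2's size factors, a filter of 1 CPM and leaving out rRNA-like genes kept each count within 1.5 times. C3 passed with no filter (adjusted p = 0.00187 by edgeR) and without the 2-run columns (log2 fold change -0.62, adjusted p = 0.00596), C3ar1 (0.00732) and C1s1 (0.0231) with no filter, and C1ra without the 2-run columns (-0.94, 0.0349). Among single genes no log2 fold change that had passed changed sign. With Cfb's level taken over its unshared bases, an alternative added after seeing the data, 5 of 9 members kept their place in the order per length. Low counts limit the C1q genes, with at most 16 in a sample.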
